A study of Mus musculus with 3 samples.

Results

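The CXC chemokine genes were read as a set of 10 members among 55536 annotated genes. They were chosen by symbol and not by a rule on their levels, though with earlier results of these data known. The members are Cxcl1, Cxcl2, Cxcl3, Cxcl5, Ppbp and Pf4 in a block on chromosome 5, Cxcl9, Cxcl10 and Cxcl11 in another block of the same chromosome, and Cxcl16 on chromosome 11. RNA was taken from the chromatin fraction of bone-marrow-derived macrophages (BMDM) of mouse strain C57BL/6J, and sequenced as total RNA after ribosomal RNA was depleted. All libraries came from cells given Lipid A, the lipid anchor of endotoxin and a ligand of Toll-like receptor 4, at 100 ng/ml for 60 minutes. They form 1 group of 3 biological replicates, made from 1 µg, 250 ng and 500 ng of RNA in replicates 1, 2 and 3, with the same donor entry and no age or sex recorded. No unstimulated cells were analysed here, so every value below is a level after Lipid A, and no induction was measured. The labels do not name separate animals, so each spread and p-value is that between these libraries and may be technical.

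CXC chemokines are small secreted proteins that guide white blood cells, and carry a pair of cysteines separated by another residue. Those with the ELR motif ahead of the cysteines, among them the products of Cxcl1, Cxcl2, Cxcl3, Cxcl5 and Ppbp, bind CXCR2 and draw neutrophils, while the products of Cxcl9, Cxcl10 and Cxcl11 lack that motif, bind CXCR3 and draw activated T cells. In macrophages, Toll-like receptor 4 drives the neutrophil-attracting genes mainly through NF-kB, and Cxcl10 through NF-kB together with interferon regulatory factors and interferon. RNA on chromatin is mostly nascent or not yet fully spliced, so a level here is closer to transcription and splicing than to the store of mature mRNA in the cytoplasm.

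The promoters of 7 members are shown first, because the members are known to answer to different transcription factors and these letters hold the motifs searched. These 7 of the 10 members had an entry among the RefSeq promoters of build GRCm38.p6 that were searched, all on chromosome 5. Each line runs 5′ to 3′ on the gene's strand and stops at the base before the transcript start in RefSeq or in GENCODE, whichever comes first. Capitals mark every match to any of 4 motifs, searched on both strands in the 250 bases before the RefSeq start. The motifs were a κB-type GGGANNTTCC, an interferon-response type GAAANNGAAA, an AP-1-type TGACTCA and a TATA-type TATAAA.
Cxcl1, chr5:90891135-90891240, plus strand: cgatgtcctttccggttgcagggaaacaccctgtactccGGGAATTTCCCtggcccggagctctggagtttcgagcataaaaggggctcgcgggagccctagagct
Cxcl2, chr5:90903789-90903870, plus strand: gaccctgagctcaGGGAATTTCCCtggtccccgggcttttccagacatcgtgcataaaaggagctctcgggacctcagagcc
Cxcl3, chr5:90785991-90786100, plus strand: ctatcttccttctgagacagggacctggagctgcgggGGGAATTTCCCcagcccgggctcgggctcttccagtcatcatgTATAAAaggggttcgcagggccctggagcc
Ppbp, chr5:90768408-90768517, plus strand: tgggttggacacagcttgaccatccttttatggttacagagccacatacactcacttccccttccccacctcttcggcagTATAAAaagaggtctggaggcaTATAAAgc
Pf4, chr5:90772325-90772434, plus strand: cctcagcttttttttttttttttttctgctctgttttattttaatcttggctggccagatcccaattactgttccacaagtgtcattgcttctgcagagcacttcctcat
Cxcl9, chr5:92328080-92328189, minus strand: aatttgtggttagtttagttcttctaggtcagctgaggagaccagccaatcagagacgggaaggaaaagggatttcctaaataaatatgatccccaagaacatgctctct
Cxcl10, chr5:92348890-92349129, minus strand: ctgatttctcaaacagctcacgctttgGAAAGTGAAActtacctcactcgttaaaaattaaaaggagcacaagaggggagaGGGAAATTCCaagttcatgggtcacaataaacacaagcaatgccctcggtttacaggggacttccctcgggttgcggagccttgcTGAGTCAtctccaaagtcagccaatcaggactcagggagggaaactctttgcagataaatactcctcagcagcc

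The κB-type letters stood in 4 of these 7 promoters, against 1.21% of the 32851 promoters in the RefSeq table. Cxcl1, Cxcl2 and Cxcl3 held the same GGGAATTTCCC, which matches on both strands with the matches overlapping by all but a single base at either end. Counted back from the RefSeq start, where -1 is the last base before it, its plus-strand match began at -71 in Cxcl1, -97 in Cxcl2 and -73 in Cxcl3. Cxcl10 held another spelling, GGGAAATTCC, at -159. The interferon-response letters GAAAGTGAAA stood at -213 in Cxcl10 and in no other of the 7, against 2.98% of all promoters. Cxcl10 also held TGAGTCA, the AP-1-type motif on the opposite strand, at -74, and that motif stood in 4.46% of all promoters. TATAAA stood in 3 of the 7, at -30 in Cxcl3, at -30 and -8 in Ppbp and at -195 in Cxcl9, outside the printed stretch, against 12.4% of all promoters. No match to any of the 4 motifs lay in the Pf4 window. A match of letters is a description of the window and does not show that a factor bound it. Only the letters given for each motif were searched, so sites of another spelling stay in lower case.

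Levels are given as TPM, a measure of transcript abundance per length that the authors scaled to the same total in every table. Detected means a TPM of at least 1 in each of the 3 libraries, which 6 of the 10 members reached, against 18.3% of all genes and 35.7% of the 22015 nuclear protein-coding genes. The 6 were Cxcl1, Cxcl2, Cxcl3, Cxcl10, Pf4 and Cxcl16. With at least 10 expected counts in each library as the rule, 5 members were detected, against 22.4% of all genes, and Pf4 was the one lost. Members took 0.132%, 0.153% and 0.114% of the expected counts on genes in replicates 1, 2 and 3. Cxcl2 alone held 56.1% of the members' counts, Cxcl1 held 20.9%, Cxcl16 held 16.2% and Cxcl10 held 6.21%. The libraries held 13318395, 15352661 and 15812581 expected counts on genes, so that the limit a count of 0 allows, 3 counts, was 0.225, 0.195 and 0.190 CPM (counts scaled to library size) in replicates 1, 2 and 3. Replicate 1 had 1.40% of its counts in rows whose identifiers name no annotated gene, against 0.352% and 0.354% in replicates 2 and 3. All 10 macrophage markers checked were detected, and their summed level was 872 to 1076 TPM.

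Cxcl2, which encodes a main neutrophil attractant of activated mouse macrophages, stood above 99.8% of nuclear protein-coding genes in mean level. Its TPM was 354.73, 601.73 and 401.01 in replicates 1, 2 and 3, from 9088, 14881 and 9218 expected counts. Cxcl1, whose product KC draws neutrophils through the same receptor, had 147.2, 178.56 and 182.6 TPM, a mean of 169 ± 19.4 (SD, n = 3), above 99.0% of coding genes. Replicate 2 was the highest library for Cxcl2 and lay between the others for Cxcl1. Cxcl2 exceeded Cxcl1 in 3 of 3 libraries, by 2.41, 3.37 and 2.20 times in replicates 1, 2 and 3. Their difference of 1.38 ± 0.32 in log2(TPM + 1) was larger than its own spread, and the exact two-sided sign-flip permutation test gave p = 0.25, the smallest that 3 libraries allow. Cxcl1 lies at chr5:90891241-90893115 and Cxcl2 at chr5:90903871-90905938 of mm10, both on the plus strand, with 10.8 kb between them and no other detected gene in that gap.

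Cxcl3, whose product is the closest relative of the Cxcl2 product among the members, lay far below both Cxcl1 and Cxcl2. It had 2.61, 2.88 and 2.77 TPM from 98.2, 114 and 85.1 expected counts in replicates 1, 2 and 3. By TPM of the gene table this was the narrowest relative spread among the detected members. A second transcript table of the authors gave 2.57 ± 0.27 TPM for Cxcl3 and 146 ± 4.76 TPM for Cxcl1 (SD, n = 3 each), where Cxcl1 spread less for its level. Cxcl1 stood 56.4, 62.0 and 65.9 times above it, and Cxcl2 stood 136, 209 and 145 times above it. The ratio of Cxcl1 to Cxcl3 was 5.94 ± 0.11 on the log2 scale, so the pair kept nearly the same distance in every library. Their promoters hold the same κB-type letters shown above. Of the 31-base words in the annotated Cxcl3 transcripts, 161 also occur in Cxcl2, which is 4.56% of the Cxcl3 words and 7.59% of the Cxcl2 words. Reads from those stretches can be split between the pair by the quantification. Cxcl3 lies at chr5:90786103-90789600 on the plus strand, 102 kb from Cxcl1.

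Cxcl5, whose product LIX is known as a neutrophil attractant of epithelial and stromal cells, was near the limit of counting in the gene table. It had 1 expected count in replicate 1 and none in replicates 2 and 3, and 1 count in all allows 0.0253 to 5.57 at 95% (exact Poisson, counting error only). The second transcript table of the authors gave another value, with 4.48, 3.37 and 4.35 TPM and 124, 112 and 145 estimated counts in replicates 1, 2 and 3. Which of the tables is nearer to the RNA present cannot be told from them. Ppbp, which encodes the platelet basic protein that is cut to a CXCR2 ligand, had 2, 2 and 0 counts, and both tables put it at 0.141 TPM or less in every library. Cxcl5 lies at chr5:90759360-90761624 and Ppbp at chr5:90768518-90770063, both on the plus strand.

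Pf4, the gene of platelet factor 4 (CXCL4), is known best from megakaryocytes and platelets and is also expressed by macrophages. It reached the detection level on few reads, with 1.88, 5.62 and 1.35 TPM from 7, 28 and 8 expected counts in replicates 1, 2 and 3. Its level was 2.19 times higher on average in the second transcript table, at 3.53, 10.1 and 5.70 TPM. Replicate 2 was the highest in both, and the sum of 43 counts has an exact Poisson interval of 31.1 to 57.9 at 95%. Of 12 platelet and megakaryocyte markers, 3 were detected, and the summed level of the 12 was 11.9, 16.9 and 15.8 TPM in replicates 1, 2 and 3. Of the 3 detected, Nbeal2 was highest in replicate 2 with 3.36, 6.41 and 2.94 TPM, Itga2b was lowest there with 1.85, 1.07 and 2.48 TPM, and Treml1 was highest in replicate 3 with 5.14, 6.82 and 7.36 TPM. The mean levels of the 12 ran from 0.02 to 6.44 TPM with a median of 0.358 TPM, and 5 of the 12 were detected in the second transcript table. The part of such cells in the Pf4 level was not tested, and in these bulk libraries fewer cells of a type and less RNA per cell cannot be told apart. Pf4 lies at chr5:90772435-90773383 on the plus strand, next to Ppbp.

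**Figure D1:**
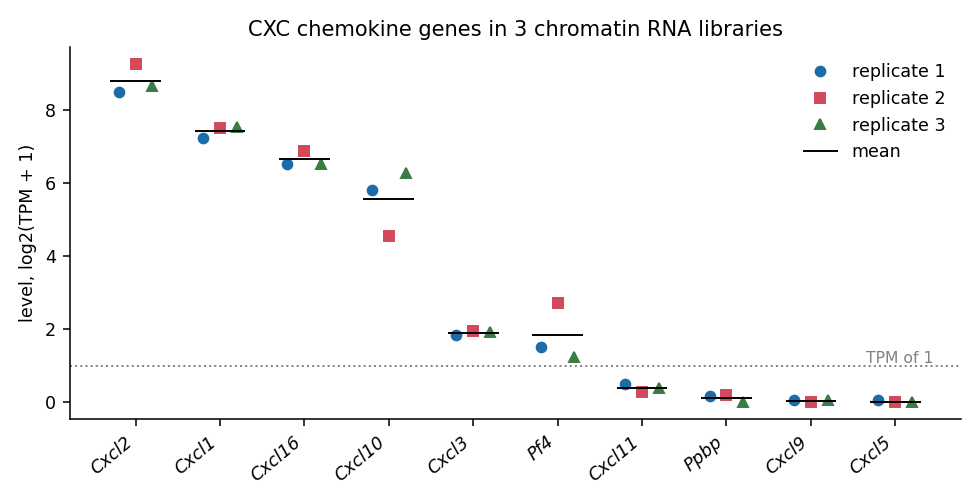
Level of each of the 10 CXC chemokine genes in log2(TPM + 1), with 1 point for each of 3 libraries and a black line for their mean. Cxcl2, Cxcl1, Cxcl16 and Cxcl10 stand well above the dotted line at a TPM of 1, Cxcl3 and Pf4 a little above it, and the other 4 members below it.

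Cxcl10, whose product IP-10 draws T cells and natural killer cells, was the only gene of a CXCR3 ligand detected in the gene table and the member that varied most between libraries among the 4 most abundant. Its TPM was 55.1, 22.43 and 76.35 in replicates 1, 2 and 3, from 1536, 520 and 1621 expected counts. Replicate 2 was the lowest, 3.40 times below replicate 3, whereas the same library was the highest for Cxcl2 and Cxcl16. The ratio of Cxcl2 to Cxcl10 was therefore 26.8 in replicate 2, against 6.44 and 5.25 in replicates 1 and 3. The second transcript table gave 57.1, 17.3 and 56.9 TPM for Cxcl10 and a ratio of 26.4 in replicate 2, against 6.23 and 5.33 in the others. Cxcl10 lies at chr5:92346638-92348889 on the minus strand, inside Art3, a gene on the plus strand that had 5.02, 2.74 and 5.44 TPM, also lowest in replicate 2. Since no source used here states whether reads were counted by strand, those of overlapping genes on opposite strands may not have been told apart, and 4.47% of the Cxcl10 words of 31 bases also occur in Art3 transcripts.

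The spread of each member was set against genes of like abundance with the coefficient of biological variation of edgeR, a measure of how far counts differ between libraries beyond sampling. For Cxcl10 it was 0.362, higher than in 99.3% of the 951 genes of like abundance, whose median was 0.154. Cxcl2 had 0.179, higher than in 81.6% of 136 genes with a median of 0.158. Cxcl16 with 0.158, Cxcl3 with 0.18 and Cxcl1 with 0.149 stood above 52.5%, 40.7% and 12.6% of genes like them. Over all 12505 genes the common value was 0.181, and fewer counts kept Pf4 out of this measure. Leaving out replicate 2, which was made from the least RNA, lowered the common value to 0.125. The part of starting RNA in these spreads cannot be told apart from other differences between the libraries.

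The direction in which a library stood apart was also measured per member, as its log2(TPM + 1) minus the mean of the other libraries. In replicate 2, Cxcl2 stood at 0.67, Cxcl16 at 0.36 and Cxcl1 at 0.12, on the same side of 0 as the median of 6132 abundant coding genes, 0.24 with an SD of 0.34 over genes. Cxcl10 at -1.49 lay on the other side, and Pf4 at 1.35 lay above the median, on its few counts. In replicate 3, Cxcl10 stood at 1.09 and Pf4 at -0.89, against a median of 0.08. In replicate 1, Cxcl1 stood at -0.29, Cxcl2 at -0.47 and Cxcl10 at 0.40, against a median of -0.31. Members of the set thus did not move as a block from library to library.

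**Figure D2:**
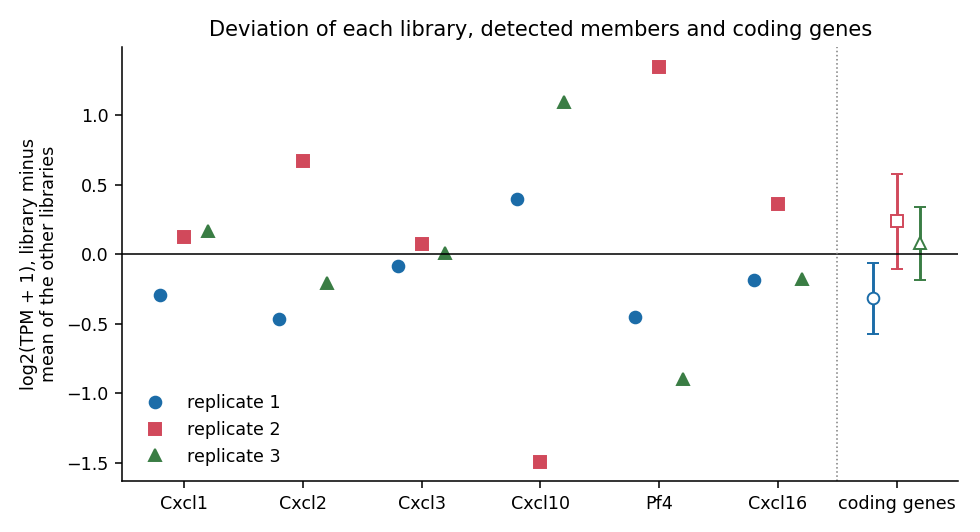
Deviation of each library for the 6 detected CXC chemokine genes, as log2(TPM + 1) minus the mean of the other libraries, in filled symbols, with the median and SD over 6132 coding genes in open symbols. Replicate 2 is the lowest for Cxcl10 at -1.49 and the highest for Cxcl2 at 0.67 and Pf4 at 1.35.

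Genes whose pattern over the libraries was most like that of a member were found by the root mean square distance of centred log2(TPM + 1), among coding genes with a mean count of at least 100. Within a distance of 0.1 of Cxcl10 lay 4 of 6131 genes. The closest were Sp140 at 0.027, with 108.89, 46.54 and 157.05 TPM in replicates 1, 2 and 3, Herc6 at 0.053 and Ifit2 at 0.054. Within 0.1 of Pf4 lay 5 of 6132, led by Lair1 at 0.016. As many as 1875 genes lay that close to Cxcl1, 634 to Cxcl2, 1232 to Cxcl3 and 1083 to Cxcl16, so the nearest genes to those members single out little. The distance is not scaled to the spread, so a member that varies more has fewer genes within it. The SD of log2(TPM + 1) was 0.89 for Cxcl10 and 0.79 for Pf4, against 0.05 for Cxcl3. These counts therefore do not show how many genes share a pattern of another size. A pattern over 3 libraries holds few values, and likeness on it says nothing of shared control.

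Cxcl9 and Cxcl11, the other genes of CXCR3 ligands, were at or near the limit of counting in the gene table. Cxcl9, known as a gene that interferon gamma induces, had 2, 0 and 2 expected counts in replicates 1, 2 and 3, and the sum of 4 has an exact Poisson interval of 1.09 to 10.2. Cxcl11 had 11, 5 and 9 counts, or 0.43, 0.22 and 0.31 TPM, and the sum of 25 has an interval of 16.2 to 36.9. The annotation types Cxcl11 as a polymorphic pseudogene, and C57BL/6 mice are known to carry an allele that does not encode a full protein. The second transcript table put both higher, at 0.591, 0.858 and 1.29 TPM for Cxcl9 and at 2.91, 3.50 and 3.59 TPM for Cxcl11. For Cxcl11, 42.2% of the 31-base words also occur in transcripts of other genes, most of them in Gm2673, a processed pseudogene on the opposite strand that the gene table listed at 0 in every library. Cxcl9 lies at chr5:92321347-92328079 and Cxcl11 at chr5:92359544-92365485, both on the minus strand.

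**Figure D3:**
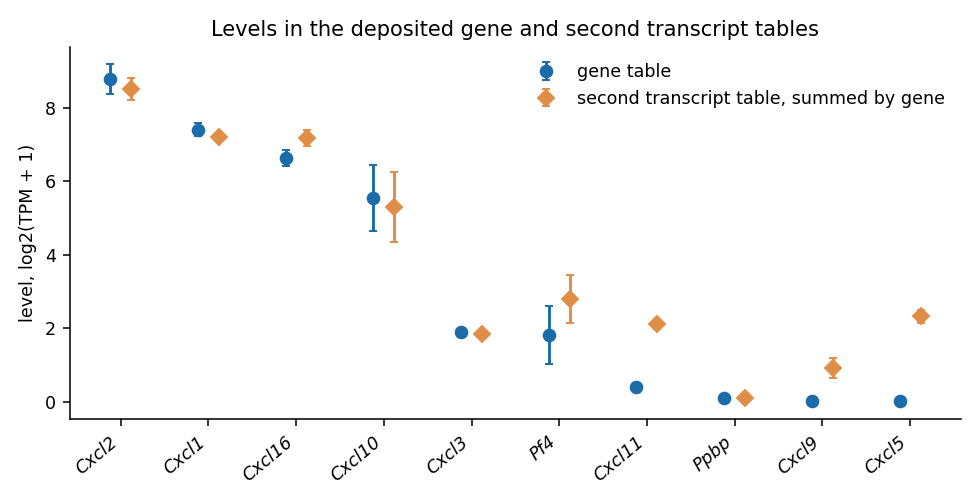
Mean level of each member in log2(TPM + 1) with its SD over 3 libraries, in circles from the deposited gene table and in diamonds from the second deposited transcript table summed by gene. The tables lie close for Cxcl2, Cxcl1, Cxcl10, Cxcl3 and Ppbp and apart for Cxcl5, Cxcl11 and Cxcl9, where the second table is higher.

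In the second deposited table, 8 of the 10 members were detected, against 32.6% of all genes and 49.8% of coding genes, the additions being Cxcl5 and Cxcl11. Its level for Cxcl5 was 305 times that of the gene table, for Cxcl9 34.3 times and for Cxcl11 10.4 times. These ratios divide by gene table levels that rest on 1, 4 and 25 expected counts, so their sizes are loosely set. For Cxcl1, Cxcl2, Cxcl3 and Cxcl10 the same ratio was 0.863, 0.822, 0.935 and 0.853. The share of 31-base words found in other genes was 0.871% for Cxcl5 and 0.574% for Cxcl9, far under that of Cxcl11. The part of the way either table was made in these gaps was not tested.

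Cxcl16, the member on chromosome 11, encodes a chemokine made on a membrane stalk that ADAM10 and ADAM17 shed and that binds CXCR6. It had 90.26, 116.51 and 90.68 TPM in replicates 1, 2 and 3, a mean of 99.2 ± 15.0 (SD, n = 3), above 98.1% of coding genes. Replicate 2 was the highest, and the other libraries were level. It stood at 146, 167 and 122 TPM in the second transcript table, 1.47 times the gene table. Cxcl16 lies at chr11:70453983-70459984 on the minus strand and overlaps Zmynd15, whose level was 8.04, 8.0 and 7.7 TPM and whose transcripts hold 18.5% of the 31-base words of Cxcl16.

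In order of mean log2(TPM + 1) the members ran Cxcl2, Cxcl1, Cxcl16, Cxcl10, Cxcl3, Pf4, Cxcl11, Ppbp, Cxcl9 and Cxcl5. These levels take in intron RNA only where an annotated transcript holds the intron, which differs between members as given below. Of the 9 pairs of neighbours in that order, 5 differed in the same direction in 3 of 3 libraries by more than the SD of the difference. Cxcl1 exceeded Cxcl16 by 0.77 ± 0.20 on the log2 scale, a step that was 0.02 ± 0.23 in the second transcript table. Cxcl16 exceeded Cxcl10 in 3 of 3 libraries, by 1.09 ± 1.09, which is not more than its spread, and by 1.88 ± 1.15 in the second transcript table, which is. The widest step was that of 3.64 ± 0.93 from Cxcl10 down to Cxcl3. Cxcl3 and Pf4 differed by 0.08 ± 0.76, with Cxcl3 higher in 2 of 3 libraries, so their places could not be told apart in the gene table, nor could those of Ppbp, Cxcl9 and Cxcl5. In the second transcript table Cxcl2 was also first and the low members stood in another order, Pf4, Cxcl5, Cxcl11, Cxcl3, Cxcl9 and Ppbp. There Pf4 was 1.24, 3.97 and 2.46 times Cxcl3 in replicates 1, 2 and 3, and Cxcl9 exceeded Ppbp by 0.81 ± 0.35 on the log2 scale in 3 of 3 libraries.

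Along the chromosome, Cxcl1 and Cxcl2 stood together, while Cxcl10 lay between members near the limit of counting. The block from Cxcl5 to Cxcl2 spans 147 kb and holds 11 annotated genes, of which 4 were detected, Pf4, Cxcl3, Cxcl1 and Cxcl2. Cxcl15, the lungkine gene 4.93 kb past Cxcl3, was listed at 0 in every library by the gene table and at 1.5, 3.59 and 3.02 TPM by the second transcript table. The block from Cxcl9 to Cxcl11 spans 44.1 kb, lies 1.42 Mb away, and holds 3 genes wholly inside it, of which Cxcl10 was detected. Within 100 kb of a member lay 35 other genes, and 11 of them were detected. On chromosome 5 these included Mthfd2l with a mean of 3.43 TPM, Sdad1 with 6.30, Scarb2 with 6.93 and Nup54 with 37.2. Near Cxcl16 they included Arrb2 with 75.9, Psmb6 with 65.9, Pld2 with 53.1, Med11 with 14.6 and Pelp1 with 1.78 TPM. The others of the 11 were Art3 and Zmynd15.

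The forms of the RNA were read from the transcript table. Cxcl1, Cxcl2, Cxcl3 and Cxcl10 each have 4 exons in their main coding transcript and an annotated single-exon transcript, typed as a retained intron, that spans at least 95% of the gene with all 3 introns kept. Where such a transcript exists, unspliced RNA of the gene can be counted as a form of its own. The boundary of the first intron is shown for these 4, since these letters tell the forms apart, with the last 12 exon bases in capitals and the first 18 intron bases in lower case, from the annotated transcripts on mm10.
Cxcl1, chr5:90891369-90891398, plus strand: GCCTGGCCACAGgtaggtctcgccactgcc
Cxcl2, chr5:90904012-90904041, plus strand: ACCAGGCTACAGgtgggattcggattcgag
Cxcl3, chr5:90786238-90786267, plus strand: ACCAGGCTACAGgtgggattcggattcgag
Cxcl10, chr5:92348736-92348765, minus strand: GTGGGACTCAAGgtaagggacaccaaggcc
The Cxcl2 and Cxcl3 windows are identical over all 30 bases, and all 12 introns of these 4 genes begin with GT and end with AG. A read across such a window keeps the lower-case letters when the intron is unspliced.

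For Cxcl1 the single-exon form Cxcl1-202 had 104.28, 140.62 and 128.47 TPM in replicates 1, 2 and 3, against 42.92, 37.95 and 54.12 TPM for the coding form Cxcl1-201. The unspliced form was the higher in each library and held 73.3 ± 4.71% of the gene's TPM (SD, n = 3). For Cxcl2 the single-exon form Cxcl2-203 had 165.25, 379.57 and 194.86 TPM, against 103.98, 133.67 and 120.75 TPM for the coding form Cxcl2-201. Its share of the TPM of Cxcl2 was 46.6%, 63.1% and 48.6%, highest in replicate 2, the library where Cxcl2 was highest. A second coding form of Cxcl2 with 3 exons, Cxcl2-202, added 52.17, 39.54 and 44.38 TPM. It has 1859 exonic bases against 1109 in Cxcl2-201, whose longest intron has 748 bases, so it may keep that intron. Since Cxcl2-202 is typed as coding, the unspliced share and the ratio of forms may understate Cxcl2 RNA that keeps an intron. A short retained-intron form, Cxcl2-204, added 33.34, 48.96 and 41.02 TPM.

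For Cxcl10 the single-exon form Cxcl10-204 had 35.17, 12.92 and 37.79 TPM in replicates 1, 2 and 3, against 11.64, 4.76 and 19.21 TPM for the coding form Cxcl10-201. Both forms were lowest in replicate 2, so the low level of Cxcl10 in that library was not that of a single form. The unspliced share of Cxcl10 was 63.8%, 57.6% and 49.5%. For Cxcl3 the single-exon form Cxcl3-202 had 1.3, 1.81 and 1.14 TPM, against 1.31, 1.07 and 1.63 TPM for Cxcl3-201. The forms of Cxcl3 changed order between libraries, and its unspliced share was 51.3 ± 10.9%.

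Over the whole annotation, 18 detected coding genes had such a single-exon form beside a spliced one, of which 4 are these members. The unspliced share of TPM was 73.3% for Cxcl1, 57.0% for Cxcl10, 52.8% for Cxcl2 and 51.3% for Cxcl3. The single-exon share over the 18 had a median of 75.1%, with quartiles of 57.6% and 90.9%. Cxcl1 thus lay between the quartiles and the other members under the lower one, which the members themselves help to set. Each of these lay under it by less than its own SD over libraries, 7.19 for Cxcl10, 9.00 for Cxcl2 and 10.9 for Cxcl3. By expected counts, in which a longer form weighs more, the shares were 86.1% for Cxcl1, 82.7% for Cxcl10, 80.9% for Cxcl3 and 69.0% for Cxcl2. The second transcript table gave 71.5%, 61.8%, 55.1% and 56.7% for the same genes in that order.

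**Figure D4:**
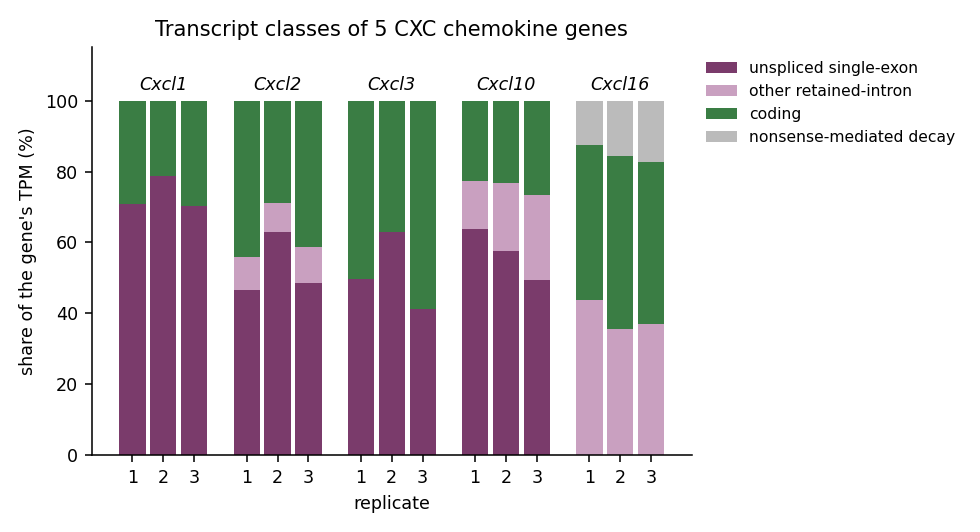
Share of the gene's TPM, in percent, held by each annotated class of transcript in each of 3 libraries, for Cxcl1, Cxcl2, Cxcl3, Cxcl10 and Cxcl16. The unspliced single-exon form holds the most in Cxcl1, between 70.4% and 78.7%, and Cxcl16 has no such form.

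The balance of forms was tested over 5601 genes with transcripts of both classes, as log2 of retained-intron TPM over protein-coding TPM with 0.5 added to each, against 0 with limma. Of 8 members with both classes 6 were abundant enough to test, and retained-intron forms were higher in 3, coding forms in 1 and neither in 2. Over all genes tested, retained-intron forms were higher in 35.5% and coding forms in 31.9%. The members' median was 0.39, against 0.08 over all genes tested. Cxcl10 had a log2 ratio of 1.61 ± 0.14 (SE, limma adjusted p = 2.04e-05), from 1.74, 1.63 and 1.45 in replicates 1, 2 and 3. Cxcl1 had 1.46 ± 0.16 (SE, limma adjusted p = 7.89e-05), from 1.27, 1.88 and 1.24. Cxcl2 had 0.72 ± 0.20 (SE, limma adjusted p = 0.0111), from 0.35, 1.30 and 0.51. In these 3 members the retained-intron forms were the higher in 3 of 3 libraries, and the second transcript table gave 1.87, 1.33 and 0.91 for Cxcl10, Cxcl1 and Cxcl2.

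Cxcl3 had a log2 ratio of 0.06 ± 0.26 (SE, limma adjusted p = 0.852), with opposite signs in different libraries, and -0.19 without replicate 2. Cxcl16, whose retained-intron form Cxcl16-203 had 39.57, 41.39 and 33.56 TPM against 39.42, 56.8 and 41.51 TPM for the coding form Cxcl16-201, had -0.25 ± 0.15 (SE, limma adjusted p = 0.159). In the second transcript table its retained-intron form averaged 82.9 TPM and its coding form 45.7 TPM, and the ratio turned to 0.85 (limma adjusted p = 1.21e-04), so no direction can be given for Cxcl16. Pf4 had -1.38 ± 0.49 (SE, limma adjusted p = 0.0343), from 0.36, -2.61 and -1.89. That call rests on few counts and was lost without replicate 2 (-0.76, limma adjusted p = 0.256), without replicate 3 (-1.13, limma adjusted p = 0.0707) and with a pseudocount of 0.1 (-2.22, limma adjusted p = 0.0566). The second table gave -0.86 for Pf4 (limma adjusted p = 0.00313).

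What the annotation allows differs between members. An annotated transcript holds all 3 introns of Cxcl1, Cxcl2, Cxcl3 and Cxcl10, 2 of 3 in Cxcl5 and 1 of 4 in Cxcl16. None of the 3 introns of Cxcl9, the 3 of Cxcl11, the 2 of Pf4 or the 2 of Ppbp is held whole by a transcript of the gene. Those introns come to 3844 bases in Cxcl9 and 2148 bases in Cxcl11. Retained-intron transcripts are annotated for Cxcl9 and Pf4 too, short forms of 370 and 360 bases that hold no intron whole, and Pf4-202 gave 1.12, 0.43 and 0 TPM of Pf4 in replicates 1, 2 and 3.

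The receptors of these ligands were mostly low, with 2 of 8 detected. Cxcr6, which binds the Cxcl16 product, had 1.25, 3.5 and 2.01 TPM in replicates 1, 2 and 3, and Cxcr4, the receptor of CXCL12, had 1.19, 1.53 and 1.57 TPM. Cxcr2, the receptor of the neutrophil-attracting members, was listed at 0 in every library by the gene table and averaged 3.29 TPM in the second transcript table. Cxcr3, the receptor for the Cxcl9, Cxcl10 and Cxcl11 products, averaged 0.08 TPM. None of 5 CXC ligand genes outside the set, Cxcl12 to Cxcl15 and Cxcl17, was detected. Of 5 proteases that act on CXC ligands 3 were detected, with Adam17, the sheddase that also releases the Cxcl16 product, at 95.8 ± 9.14 TPM, Mmp12, which cleaves ELR chemokines, at 45.9 ± 19.3 TPM and Adam10 at 2.27 ± 0.886 TPM (SD, n = 3 each).

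All 10 listed regulators of CXC transcription were detected. The NF-kB subunit gene Nfkb1 averaged 404 ± 65.5 TPM, the inhibitor gene Nfkbia 374 ± 62.7 TPM, Irf1 302 ± 52.3 TPM and Nfkbiz, whose product acts with NF-kB on secondary genes, 206 ± 11.6 TPM (SD, n = 3 each). Among the 10, Rela, Nfkbiz and Ifnb1 were lowest in replicate 2. Of these only Ifnb1, the interferon beta gene, was highest in replicate 3, the order of Cxcl10 by TPM of the gene table. All 6 listed regulators of CXC mRNA decay were detected as well. Zfp36, which encodes the AU-rich element binder tristetraprolin, averaged 56.9 ± 3.69 TPM, and Zc3h12a, which encodes regnase-1, averaged 33.4 ± 4.19 TPM (SD, n = 3 each). Arid5a, which encodes a stabilizer of inflammatory mRNAs, had 21.42, 13.74 and 29.37 TPM in replicates 1, 2 and 3, also in that order. In the second transcript table Cxcl10 had 57.1 and 56.9 TPM in replicates 1 and 3, so its order between these libraries was not kept there.

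Markers of other cells known to express members were low, apart from a few. Of 10 neutrophil markers 1 was detected, Csf3r at 31.1 TPM, which macrophages also express, and 6 had no count, S100a8 and S100a9 among them. None of 7 fibroblast and stromal markers was detected, with a summed level of 0.2 to 1.51 TPM, and 1 of 6 endothelial markers was detected, Kdr at 1.95 TPM. In the second transcript table the detected markers were 1 for neutrophils, 1 for fibroblasts, Col1a1 at 1.33 TPM, and 2 for endothelium, with Pecam1 at 7.72 TPM against 0.337 TPM in the gene table. The part of such cells in the member levels was not tested.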

How the data were processed

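Total RNA-seq of chromatin RNA was deposited for 3 libraries. The build was mm10 and the annotation GENCODE M21, per the labels and the text deposited with each library. No source used here states the aligner, the programs behind the tables, their versions or the strand setting. Per the file headers, the deposited tables of each library were one per gene and one per transcript, both with expected counts and TPM in columns named as RSEM names them. A further transcript table, called the second, held estimated counts and TPM in columns named as kallisto names them. The TPM of the authors sum over every row of a table, spike-ins among them. The identifiers of all 10 members were found in the annotation. Gene totals leave out 26345 rows whose identifiers were not in the annotation, which held 1.40%, 0.352% and 0.354% of expected counts.

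Levels are TPM of the gene table, with mean and SD over libraries, and log2(TPM + 1) for differences. The pseudocount understates differences of low genes. TPM are shares, so the level of a coding gene also depends on the noncoding RNA in the library. Library pairs differed beyond sampling noise, with chi-square per degree of freedom of 36.9, 15.3 and 36.9, so none was counted as a copy. Neighbours in the order of levels were compared within libraries by flipping signs in an exact permutation test, two-sided. Isoform ratios were tested with limma 3.58.1 (intercept only, variance trend on mean summed TPM, Benjamini-Hochberg over all genes with a mean summed TPM of at least 1, threshold 0.05), after a test on simulated data. The spread was estimated with edgeR 4.0.16 on expected counts rounded to whole numbers, with TMM factors and filterByExpr. Counts are not unique molecules, so Poisson intervals and floors cover counting error only. Shared words of 31 bases were matched on either strand against the M21 transcripts. Tools were python 3.11.15 with pandas 2.3.3, scipy 1.17.1 and numpy 2.4.6, and R 4.3.3. The members, lists, tests and alternatives were chosen with earlier results of these data known. All members are named, other genes from fixed lists of receptors, ligands, proteases, regulators and cell type markers, from detected neighbours within 100 kb, or as the 3 genes most like a detected member.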

Additional observations from a re-analysis of the deposited data

How the results depend on the processing

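Alternatives changed the quantification table, the scaling, the pseudocount, the filters, the variance trend and the normalization, or left out each library. The share of gene counts on members, 0.133%, was 0.0988% with the estimated counts of the second transcript table and 0.210% over nuclear protein-coding genes, an alternative added after the data were seen. The number of members with coding forms higher, 1, was 2 in the second transcript table, Pf4 and Cxcl5. It was 0 with a pseudocount of 0.1, with no filter, with no variance trend and with class means per transcript in place of sums. With a library left out it was 0 to 1. With a mean summed TPM of at least 5 it was 0 because Pf4 fell under that filter and was not tested. Among all genes, 3200 had retained-intron forms higher in the second transcript table, against 1989, and 1117 had coding forms higher with a mean summed TPM of at least 5, against 1784. The ratio of Cxcl16 turned to 0.85 in the second transcript table and that of Cxcl3 ran from -0.19 to 0.27 with a library left out. The cause was not tested. Cxcl1, Cxcl2 and Cxcl10 kept retained-intron forms higher under every alternative run. The common spread was 0.195 over genes with any count, 0.192 without normalization factors and 0.125 to 0.206 with a library left out. The second transcript table moved the level of 7 of 10 members by more than 1 SD. Scaling to coding genes moved all 10 upward, as it must, since it divides by part of the total. Leaving out 1 of 3 libraries cannot move a mean by more than 1 SD, so that rule could not show dependence on a library. The level of Cxcl10, 5.54 in log2(TPM + 1), ran from 5.18 to 6.04 with a library left out. No paired analysis was possible because the series holds a single group. Depth limits Cxcl5, Cxcl9, Ppbp, Cxcl11 and Pf4, which rest on 43 counts or fewer over all libraries.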
